A study of Saccharomyces cerevisiae with 67 samples.

Results

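The regions described here are the stretches of H4K12ac enrichment in the yeast genome that contain no start of a protein-coding gene. They numbered 69 of the 1970 regions in the consensus list, or 3.50%, and held 102571 of the 7458691 bases of that list, or 1.38%. They were selected on the measured positions of the regions: a region was taken when the annotated 5′ end of none of the 6002 nuclear protein-coding genes in the sacCer3 annotation fell between its first and last base. The absence of a start, the nearness of the closest start and the position of the regions along genes therefore follow in part from the choice and are given as a description, with no test. The study followed Saccharomyces cerevisiae BY4741, the wild type (WT), and the same strain lacking MIP6 (mip6Δ), which encodes an RNA-binding protein linked to mRNA export. Cultures in rich medium were split in the exponential phase and kept at 30 ºC or moved to 39 ºC for 20 or 120 min. The labels used here name 19 H4K12ac ChIP-seq libraries, for WT 3 at 30 ºC, 1 after 20 min and 4 after 120 min, and for mip6Δ 4, 3 and 4. The list merges the peaks of the study's H4K12ac samples, with no record of which libraries entered it, and gives the start and end of each region with no height and no sample, so WT and mip6Δ cells, or control and heat-shocked cells, cannot be set apart in what follows. Since merging joins overlapping peaks, a region may extend past the peaks of each library taken alone.

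Acetylation of lysine 12 in the tail of histone H4 is laid down by histone acetyltransferases such as the NuA4 complex and removed by deacetylases. Acetylated H4 tails bind neighbouring nucleosomes less tightly and are read by bromodomain proteins such as Bdf1, a partner of the TFIID complex that assembles at promoters. In yeast the mark is therefore known above all from the 5′ ends of genes, and regions that avoid those ends are the minority case. What they contain instead can be a gene body, the 3′ end of a gene, a gene for a small RNA, a replication origin or a mobile element.

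The margin that separates a region with a start from a region without one was a few bases in some genes, and the DNA at that margin is shown for the 5 closest cases. The sequences come from the RefSeq copy of the sacCer3 genome (R64). Each runs from the A of the annotated start codon into the region, and capitals mark the 15 bases that lie inside it.
HMS1 (chrXV:391056-391075, minus strand): atgccAAATTTTCAAAAACC
GTO3 (chrXIII:772915-772951, plus strand): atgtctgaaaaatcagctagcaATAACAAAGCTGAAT
TPO1 (chrXII:84804-84849, plus strand): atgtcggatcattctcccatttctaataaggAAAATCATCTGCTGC
COS6 (chrVII:1082653-1082729, minus strand): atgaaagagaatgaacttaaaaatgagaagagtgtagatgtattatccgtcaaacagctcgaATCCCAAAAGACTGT
CAR1 (chrXVI:339944-340027, plus strand): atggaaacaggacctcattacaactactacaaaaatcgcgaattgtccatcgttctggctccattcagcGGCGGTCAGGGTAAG
In these 5 genes the region opened 5, 22, 31, 62 and 69 bp after the start codon began. On the other side of the line, the 5 regions that only just held a start did so by 21 bp at YGR240C-A, 23 bp at VEL1, 56 bp at DMC1, 62 bp at ECM11 and 69 bp at PCK1. The annotation begins a gene at its start codon, so the TSS of each gene lies some way further upstream.

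Beyond that edge the regions spread widely. The distance from a region to its closest coding start had a median of 652 bp. It was at most 100 bp in 6 regions, at most 250 bp in 15 and at most 500 bp in 30, while 30 regions lay over 1000 bp away and 13 over 2000 bp. Most of them, 47, were on the downstream side of the closest start, the side to which its gene runs, and 22 were on the upstream side. A downstream region can lie inside the gene or past its end, and some, such as those near SEO1 and FLO5, touched no protein-coding base. The closest start was itself in no H4K12ac region in 50 cases and in another region in 19. In the plot of the ranked distances all regions closer than 100 bp are on the downstream side.

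**Figure D1:**
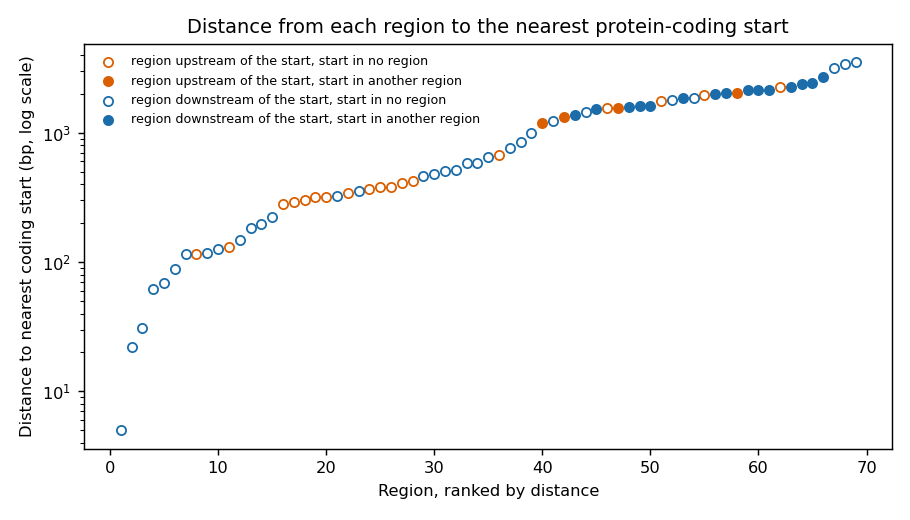
Distance from each of the 69 regions to the nearest protein-coding start (y axis, bp, log scale), ranked from nearest to farthest (x axis). Colour gives the side of the start on which the region lies and filled points mark a start that lies in another region; filled points appear only at distances above 1000 bp, and open points span 5 to 3490 bp.

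The regions were short. Their length ranged between 518 and 4454 bp around a median of 1308 bp, with quartiles of 1021 and 1816 bp, whereas the 1901 regions with a start had a median of 2921 bp. A shorter region has less room for a start, so the other regions were also taken within the same length limits, which left 1327 with a median of 2188 bp. The 10 longest regions without a start measured 4454, 2931, 2836, 2826, 2811, 2686, 2576, 2555, 2280 and 2203 bp, and all 10 are described with their contents further on. GC content was similar in the groups, with a median of 37.0% against 38.2% in all other regions and 38.0% within the length limits. It ranged from 29.6% in the region around the origin ARS721 to 46.9% in the region over GTO3. The gap to the closest neighbouring region was also alike, with a median of 1006 bp against 1061 bp.

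By structure, 31 regions contained 1 gene end, 7 contained 2 gene ends, 9 lay wholly inside a single gene and 22 touched no protein-coding base. Coding genes took up 48.2% of their bases, below the 69.0% of the length-limited regions with a start and the 72.8% of the nuclear genome. Bases with none of the annotations considered made up 41.7%, against 29.3% and 24.3%. The remaining bases were RNA genes with 1.83% against 0.434% in the length-limited regions and pseudogenes with 3.21% against 0.0889%. Long terminal repeats (LTRs) or Ty elements had 3.08% against 0.585%, and origins or centromeres 2.02% against 0.635%. Most of the 1872 RNA gene bases lay in the genes SNR86 and SUT532, each in a single region. Counted by region, snoRNA genes were in 1.45% against 1.81% and tRNA genes in 5.80% against 4.22%. A region with a start must hold coding bases by definition, so the lower coding share follows in part from the rule. So do the shares of RNA genes and pseudogenes, since their own starts were not counted. The rule also favours stretches with few coding genes. The shares of LTRs, origins and chromosome ends, here and below, may therefore follow in part from it, which was not tested.

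**Figure D2:**
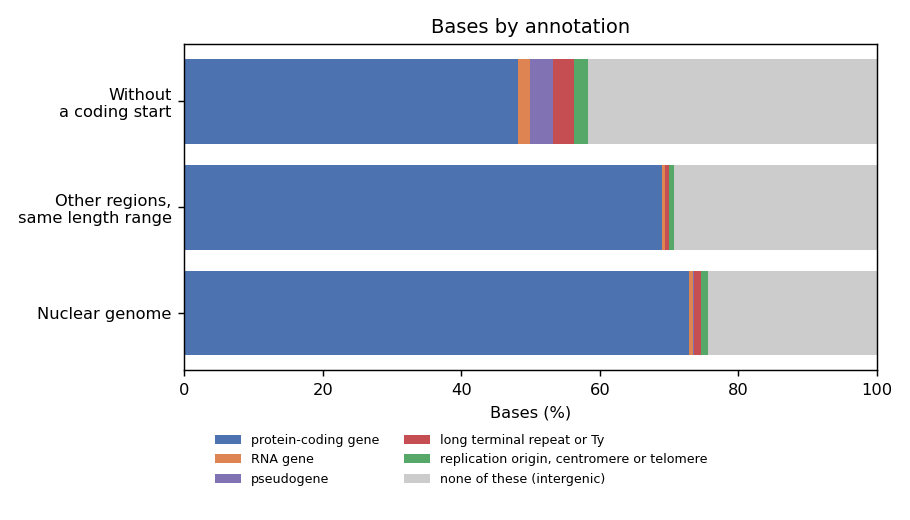
Share of bases (x axis, %) in each annotation for the 69 regions without a coding start, the 1327 other regions of the same length range and the nuclear genome. Each base is counted once, and coding genes take 48.2%, 69.0% and 72.8%.

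The clearest group was made of genes whose body lay in part in an H4K12ac region while their start lay in no region. Peaks were called without the total H4 libraries, so a region is not corrected for total H4. The regions overlapped 54 protein-coding genes, of which 31 had a start outside every region in the list and 23 had a start in another region. Of all protein-coding genes, 606 had their start in no region. A region of any kind touched the body of 143 of these, and for 31 of them that region was without a start. The covered stretch was long in this group, with a median of 66.2% of the gene, and it exceeded 50% in 19 of the 31 genes. It ran through the gene end in 25, and in 13 the region opened within 250 bp of the start. In the 23 genes with a start in another region the median covered share was 14.2%, the highest was 47.5% in SPC97, and no stretch began closer than 1015 bp to the start. The rule itself keeps the stretch away from a start that another region holds, so the difference between these groups was not tested. Overlapped genes were long, with a median of 2208 bp against 1200 bp for all protein-coding genes. The median was 1761 bp in the 31 genes and 2487 bp in the 23. A long gene has more room for a region that avoids its start, so this length follows in part from the rule.

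**Figure D3:**
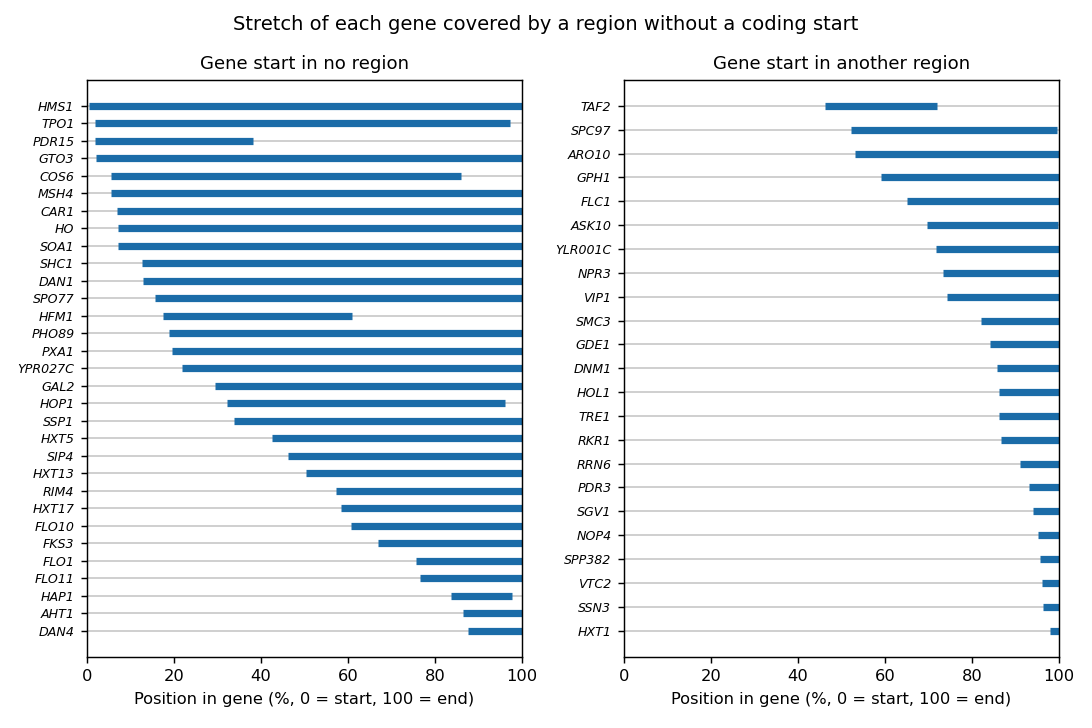
Stretch of each of the 54 overlapped genes that lies in a region without a coding start (blue), drawn along the gene from its start at 0% to its end at 100% (x axis), for 31 genes with a start in no region and 23 with a start in another region. On the left 19 genes are covered over more than 50% of their length, and on the right none is.

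Genes of meiosis and spore formation recurred among those with an uncovered start. Words for meiosis or sporulation stood in the annotated descriptions of 8 of the 31 genes, or 25.8%, of 2 of the 23 genes with a start in another region, of 9.57% of the 575 other genes with a start in no region and of 5.45% of all protein-coding genes. This word list and the next ones were written after the gene names were seen and carry no test. MSH4, which stabilises meiotic crossover intermediates, was covered over 94.4% of its length from 147 bp after its start. SHC1, an activator of chitin synthase in sporulating cells, was covered over 87.3% from 195 bp. For SPO77, needed for spore wall formation, the share was 84.4%, and the region opened 223 bp after the start. SSP1, a coat protein of the forming spore membrane, had 66.2% of its length in a region. HOP1, a protein of the meiotic chromosome axis, was covered from 585 to 1746 bp after its start, which leaves both ends of the gene outside. HFM1, a helicase of meiotic crossing over, was covered from 652 to 2266 bp, again with both ends outside. In RIM4, an RNA-binding regulator of meiosis, the region took the last 42.7% of the gene, and in FKS3, a glucan synthase subunit used for the spore wall, the last 33.2%. The FKS3 region also lies 411 bp upstream of the start of the next gene, GAS1. Many of these genes are known to be silent or nearly so in growing cells, but the expression levels of the study were not analysed here.

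Words for transport across membranes formed the next group. They stood in the descriptions of 9 of the 31 genes (29.0%) and 6 of the 23 (26.1%). The shares were 8.17% of the 575 other genes with a start in no region and 5.31% of all protein-coding genes. The 6 were PDR3, VTC2, HXT1, HOL1, TRE1 and FLC1, and a matching word does not make each of them a transporter. TPO1, a polyamine exporter of the plasma membrane, was covered over 95.5% of its length. SOA1, a sulphur-compound transporter, was covered over 92.8% by the longest region of the set, chrIX:27996-32449 with 4454 bp. PHO89, a sodium-phosphate symporter, was covered over 81.2%, and PXA1, a subunit of the peroxisomal fatty acid transporter, over 80.4%. GAL2, the galactose permease, had 70.6% in a region that began 508 bp after its start. PDR15, an ABC transporter of the multidrug resistance family, differed in that the front of the gene was covered, from 88 to 1748 bp, and 6170 bp separated its region from the next. Of the 16 hexose transporter genes named HXT, the regions touched 4. HXT5 was covered over 57.4%, HXT13 over 49.7% and HXT17 over 41.7%, each through its end. HXT1, the low-affinity glucose carrier, was touched over its last 34 bp only and had its start in another region. Of the stretches of 50 bases (50-mers) in the HXT13 region, 21.5% occur more than once in the genome. The share was 14.5% in the HXT17 region and 3.96% in the HXT5 region.

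Words for flocculins or the cell wall were the third recurring group. They stood in the descriptions of 5 of the 31 genes (16.1%) and 1 of the 23, FLC1. The shares were 5.04% of the 575 other genes with a start in no region and 3.03% of all protein-coding genes. Flocculins are long adhesins of the cell surface with internal tandem repeats, and in all 3 that were overlapped the region sat at the 3′ end. It took the last 1124 of 4614 bp of FLO1, 961 of 4104 bp of FLO11 and 1380 of 3510 bp of FLO10. The region at FLO1 began 3490 bp after the start, the greatest distance in the set, and that at FLO11 began 3143 bp after it. DAN1, a mannoprotein of anaerobic cells, was covered over 87.1% from 116 bp after its start. A neighbouring region of 2555 bp, which lies 423 bp upstream of DAN1, took the last 12.3% of DAN4 and the origin ARS1022. Of the 50-mers in the FLO1 region 27.9% were repeated, and none were in the FLO11, FLO10 and DAN4 regions.

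Further genes with an uncovered start had varied roles. HMS1, a helix-loop-helix protein linked to filamentous growth, had 1300 of its 1305 bp in a region and GTO3, a glutathione transferase, 1079 of 1101 bp. CAR1, arginase, was covered over 93.1% of its length. HO, the endonuclease of mating-type switching, was covered over 92.8% by a region of 1742 bp that also holds the origin ARS404. COS6, a member of a subtelomeric family, was covered from 62 to 985 bp and had the highest share of repeated 50-mers of all 69 regions, 29.8%. In SIP4, an activator of gluconeogenic genes, the last 53.7% was covered, by a region that also lies 383 bp upstream of ARG3.

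Only 9 regions lay wholly inside a gene. From longest to shortest they were in TPO1 (1682 bp), PDR15 (1661 bp), HFM1 (1615 bp), SPC97 (1173 bp), HOP1 (1162 bp), TAF2 (1084 bp), ASK10 (1038 bp), COS6 (924 bp) and HAP1 (639 bp). SPC97, a spindle pole body protein of the γ-tubulin complex, was covered over its second part from 1290 to 2462 bp. TAF2, the subunit of TFIID, was covered from 1956 to 3039 bp of its 4224 bp, far from either end. ASK10, a regulator of the glycerol channel Fps1, was covered from 2395 to 3432 bp of its 3441 bp, which stops just short of the gene end. These 3 genes had their start in another region. No gene held more than 1 of the regions.

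Gene ends were present in 38 regions, or 55.1%, a lower share than the 66.2% of length-limited regions with a start. In each of the 7 regions that held 2 gene ends the genes converged, so that the region spanned the space between their 3′ ends. The pairs were VTC2 and MSH4, RIM4 and NPR3, AHT1 and HXT1, DNM1 and YLR001C, CAR1 and GDE1, NOP4 and SSN3, and GPH1 and SGV1. The ends stood 122 bp apart between CAR1 and GDE1, 224 bp between VTC2 and MSH4, 332 bp between RIM4 and NPR3 and 434 bp between GPH1 and SGV1. They stood over 1000 bp apart in the other 3 pairs, with 1043 bp between NOP4 and SSN3, 1222 bp between AHT1 and HXT1 and 1225 bp between DNM1 and YLR001C. GPH1, glycogen phosphorylase, had its last 40.8% in the region, and SGV1, a cyclin-dependent kinase of transcription elongation, its last 5.93%. For NOP4, a ribosome biogenesis factor, and SSN3, the kinase of the Mediator complex, only the last 98 and 60 bp were inside. Regions with a single end of a gene whose start lay elsewhere in the list included ARO10, a decarboxylase of aromatic amino acid breakdown (last 46.8%), FLC1, a flavin carrier (last 35.0%), VIP1, an inositol pyrophosphate kinase (last 25.7%), and SMC3, a cohesin subunit (last 17.8%). The shortest region of all, 518 bp, held the last 93 bp of SPP382, a factor of spliceosome disassembly.

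On the upstream side of a start, 13 regions lay within 500 bp, which is the stretch where a yeast promoter and the TSS are found. The annotation gives coding starts only, so it cannot be told from these positions whether such a region covers a TSS. None of the 13 closest starts was in any other region. The nearest were RPL1A, a protein of the large ribosomal subunit, at 116 bp and APQ13 at 130 bp. Others were THI72, a thiamine transporter, at 316 bp and YRA1, an mRNA export adaptor, at 318 bp. ARG3, an enzyme of arginine synthesis, was at 383 bp, GAS1, a cell wall glucan-modifying enzyme, at 411 bp and DAN1 at 423 bp. A region upstream of OSI1 ended 382 bp before it. The remaining 5 were beside Ty elements, at 280 bp from YER160C, 293 bp from YLR256W-A, 299 bp from YBL005W-B, 343 bp from YGR038C-B and 367 bp from YLR410W-B. The region beside YLR256W-A lies inside HAP1, the haem-responsive activator, whose 3′ part precedes a Ty1 insertion in the reference strain. Several others are regions described elsewhere by the gene they overlap: FLC1 for RPL1A, SMC3 for APQ13, ARO10 for YRA1 and SIP4 for ARG3. The same holds for FKS3 at GAS1, DAN4 at DAN1 and VIP1 at YLR410W-B.

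Repeated sequence accompanied these positions. ChIP-seq reads of the study were 50 bases long, and a 50-mer was counted as repeated where it occurs more than once in the genome. Shares given are of 50-mers and not of bases. Inside the regions such 50-mers were sparse, at 0% in the median region and 29.8% at most. In the 500 bp on either side, 27 regions (39.1%) had some, against 10.4% of length-limited regions with a start. In 13 (18.8%) they made up over 50% of the 50-mers in the more repeated flank, against 5.20%. The 100 bp on each side of the closest start held repeated 50-mers for 14 regions (20.3%), while 5.13% of all protein-coding genes had them there. For the 18 upstream regions with that start in no region the count was 9, and for the 32 downstream ones it was 5. The Ty genes had 31.6% at YBL005W-B, 63.8% at YLR256W-A, 72.4% at YGR038C-B, 85.5% at YER160C and 97.4% at YLR410W-B. RPL1A, which has a near-identical paralog, had 24.3%. At THI72, YRA1, ARG3, GAS1 and HMS1 there were none. How reads with several matches were treated is not given in the sources used here, and the part of this in the missing starts was not tested.

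**Figure D4:**
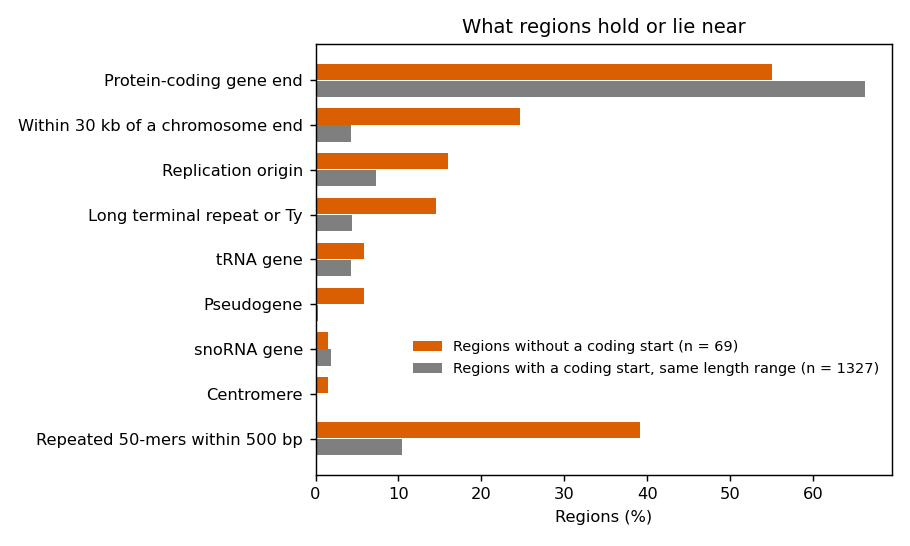
Share of regions (x axis, %) that hold each feature (at least 1 base), lie within 30 kb of a chromosome end, or have repeated 50-mers in the 500 bp on either side. Orange bars are the 69 regions without a coding start and grey bars the 1327 other regions of the same length range; the orange bar is longer for all but gene ends and snoRNA genes.

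Genes for small RNAs were present in few regions. A tRNA gene was found in 4 of 69 (5.80%), against 4.22% of length-limited regions with a start and 8.63% of all others. These 4 held 5 of the 193 tRNA genes touched by any region. RNA polymerase III transcribes tRNA genes from promoter boxes that lie inside the gene. The 5 genes are shown whole, and capitals mark the match to GTTCNANNC, the core of the B box, which was searched on the coding strand and occurs in 270 of the 275 annotated nuclear tRNA genes (98.2%).
YNCB0004W, tRNA-Ile (chrII:197494-197567, plus strand): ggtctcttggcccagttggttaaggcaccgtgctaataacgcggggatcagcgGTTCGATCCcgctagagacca
YNCB0005C, tRNA-Gly (chrII:197629-197699, minus strand): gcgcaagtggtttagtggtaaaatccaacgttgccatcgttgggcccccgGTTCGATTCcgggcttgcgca
YNCE0027C, tRNA-Glu (chrV:487331-487402, minus strand): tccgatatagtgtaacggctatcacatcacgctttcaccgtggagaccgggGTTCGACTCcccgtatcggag
YNCK0010W, tRNA-Trp (chrXI:302918-303023, plus strand): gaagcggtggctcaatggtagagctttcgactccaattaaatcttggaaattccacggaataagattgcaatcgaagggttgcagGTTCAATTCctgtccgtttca
YNCK0014W, tRNA-Val (chrXI:379680-379753, plus strand): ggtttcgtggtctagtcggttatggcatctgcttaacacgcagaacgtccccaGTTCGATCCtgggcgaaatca
The tRNA-Ile and tRNA-Gly genes shared a region of 2931 bp with a Ty1 LTR, a Ty3 LTR, the origin ARS231 and the last 238 bp of RRN6, a factor of RNA polymerase I. The tRNA-Glu and tRNA-Trp genes also had a Ty1 LTR in their region, of 1308 and 2686 bp. For tRNA-Val, 82.4% of the gene lay in a region of 1060 bp whose edge cuts the B box match, with the final base of the match outside.

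The other RNA genes came to 1 region each. SNR86, an H/ACA box snoRNA gene of 1004 bp, had 87.2% of its length in a region of 1736 bp that also takes the last 624 bp of RKR1, a ubiquitin ligase of ribosome quality control, and whose closest coding start, FAA4, is 2432 bp away. SUT532, a noncoding RNA of 497 bp, was whole in a region of 1318 bp on chromosome VII. An rRNA region, chrXII:459773-460803, covered 19.8% of the 5S gene RDN5-1 and the last 1.34% of RDN37-2, the precursor of the larger rRNAs, with the spacer between them. Ribosomal DNA is a long tandem array of which the reference holds few copies. No region followed for 30061 bp, up to chrXII:490865-491634, which also holds no coding start, and none preceded it for 11172 bp. The more repeated flank of the first was repeated at 100% of positions and that of the second at 7.76%.

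Pseudogenes were found in 4 regions (5.80%), against 0.301% of length-limited regions with a start. The rule counts starts of protein-coding genes only, so a region at the start of a pseudogene can enter the set. This share therefore follows in part from the rule, since FLO8, CRS5 and SDL1 had their start in such a region. FLO8, a flocculation activator that is broken by a stop codon in the reference strain, had 43.0% of its length in a region of 2097 bp that includes its start. CRS5, a metallothionein-like gene, lay whole in the HMS1 region, and SDL1, a serine dehydratase-like gene, lay whole in the SOA1 region. HXT12 had 75.2% of its length, without its start, in a region of 1033 bp. Counting these and the RNA genes, 9 of the 69 regions held the start of a gene that is not annotated as coding for a protein, so 60 held no start of any annotated gene.

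Replication origins, where the origin recognition complex binds an AT-rich consensus, were touched by 11 regions (15.9%), against 7.23% of length-limited regions with a start and 11.9% of all others. They were ARS231, ARS404, ARS432, ARS516, ARS520, ARS605, ARS721, ARS1010, ARS1022, ARS1123 and ARS1208, of which 8 were whole. The ARS consensus occurred on either strand in 3 of these 8 and in 35.2% of the 352 annotated origins. Those 3 matches are shown in capitals with 10 bases on each side.
ARS1022 (chrX:711997-712027, minus strand): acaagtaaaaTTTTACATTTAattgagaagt
ARS1123 (chrXI:642776-642806, plus strand): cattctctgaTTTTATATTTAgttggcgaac
ARS1208 (chrXII:151072-151102, plus strand): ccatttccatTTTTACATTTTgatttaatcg
ARS605 lay within the 2811 bp of the MSH4 region, and its position from 135985 to 136085 on chromosome VI is inside MSH4 itself. ARS516 lay in a Ty1 LTR behind SHC1, in a region of 2576 bp with a further Ty1 LTR and a Ty4 LTR at its edge. ARS1123 was alone in a region 2153 bp from the closest coding start, that of SIR1.

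ARS1208 adjoins CEN12 in the only region without a start that holds a centromere, out of 15 regions with a centromere in the whole list. The region is 2280 bp long, chrXII:149841-152120, and reaches from the last 323 bp of DNM1, the dynamin of mitochondrial fission, to the last 732 bp of YLR001C. Yeast point centromeres consist of the short elements CDEI and CDEIII, bound by Cbf1 and the CBF3 complex, on either side of the AT-rich CDEII. The whole element is given with CDEI (10 bp) and CDEIII (25 bp) in capitals.
CEN12 (chrXII:150828-150947, minus strand): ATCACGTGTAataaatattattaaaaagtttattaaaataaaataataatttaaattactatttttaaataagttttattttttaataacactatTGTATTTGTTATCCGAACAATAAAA
The list records enrichment over a stretch that includes the centromere and says nothing of its height at CEN12 itself.

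**Figure D5:**
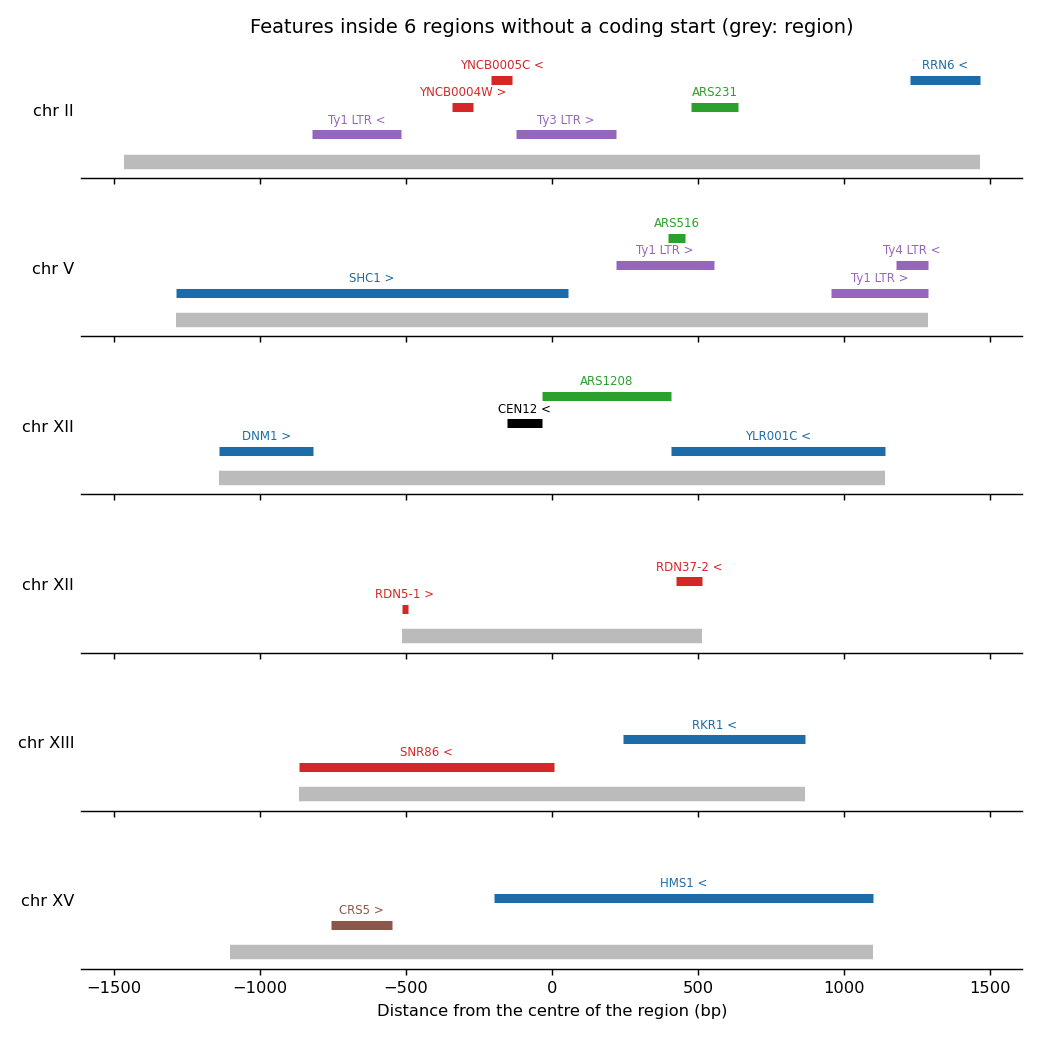
Features in 6 of the regions (grey bars), by distance from the centre of the region (x axis, bp). Blue marks protein-coding genes, red RNA genes, purple LTRs, green origins, black a centromere and brown a pseudogene, each drawn only as far as it lies inside the region, and > or < gives the strand; the region at the top holds 2 tRNA genes, 2 LTRs and ARS231, and the CEN12 region has a gene end on either side.

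LTRs are the ends of Ty retrotransposons and often remain alone after the rest of the element is lost. They were touched by 10 regions (14.5%), against 4.45% of length-limited regions with a start and 7.15% of all others. A Ty1 LTR was present in all 10. The overlap was marginal in the regions beside YER160C and YLR256W-A, which took 5.33% and 0.299% of the LTR. A region of 786 bp on chromosome III and a region of 677 bp on chromosome V held a whole Ty1 LTR each and no other annotated feature, and the latter lies 2140 bp from the closest start, YER134C. Behind HOL1, a polyamine transporter, a region of 1854 bp held a whole Ty1 LTR and 39.5% of another.

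Nothing annotated was found in 9 regions. They include the region of 2826 bp that lies 1937 bp upstream of FLO1, a region of 888 bp that begins 3371 bp after the start of FLO5, and regions of 666 and 1779 bp near the left end of chromosome I, where the closest starts, SEO1 and TDA8, were 2674 and 2236 bp away. On chromosome VII, regions of 920, 885 and 848 bp had ZRT1, MAL13 and PAU12 as their closest starts, at 1320, 1590 and 675 bp. The region of 1897 bp upstream of THI72 stood apart from its neighbours by 7504 and 7490 bp. The region of 770 bp behind the rDNA completes the list.

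The chromosome ends were well represented. Within 30 kb of an end lay 17 of the 69 regions (24.6%). The share was 4.94% of all regions with a start and 4.22% of those within the length limits. Of the 17 regions, 9 touched no protein-coding base. The rule favours stretches with few coding genes, so this share may follow in part from the choice, which was not tested. The closest to an end was the region near SEO1, at 5676 bp, followed by those at COS6 with 8273 bp and HXT17 with 9769 bp. Chromosome I had 4 of its 34 regions without a start (11.8%) and chromosome VIII 6 of 78 (7.69%), while chromosome XV had 2 of 184 (1.09%). No region touched an annotated telomere.

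Gene families taken by name differed in their counts. The 54 overlapped genes, of 6002, included 4 of 16 hexose transporter genes and 4 of 41 genes of the PAU, COS and FLO families (9.76%), namely COS6, FLO1, FLO10 and FLO11. They included none of 138 cytosolic ribosomal protein genes, none of 67 mitochondrial ribosomal protein genes, none of 20 nuclear pore genes and none of 17 heat-shock protein genes. With so few genes overlapped in all, a count of none in a small family says little by itself.

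Short promoter motifs were compared in the central 500 bp of every region, on both strands. TATAAA was found in 47.8% of the regions without a start, against 44.7% of all regions with a start, and TATATA in 26.1% against 28.3%. TTACCCG, bound by the promoter factor Reb1, was found in 1 region (1.45%), against 5.26% of all others and 6.25% of those within the length limits. GTTCGANTC, a narrower form of the B box core, was present in 2.90% against 1.16% and the ARS consensus in 5.80% against 3.31%. The last 2 rest on 2 and 4 regions, and a match is a string in the sequence and no evidence that a factor binds there.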

How the data were processed

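The authors trimmed H4K12ac ChIP-seq reads with cutadapt and used Bowtie2 for alignment to sacCer3. MACS2 called peaks from the H4K12ac libraries alone, without the total H4 libraries, and bedtools joined the peaks across samples. Tool versions and the treatment of reads with several matches are not given in the sources used here. The deposited list holds positions, and its score column, per the file, is 0 in every row of what the authors deposited. Depth cannot be read from it, and it has no replicates, so no test was made. The total H4 and RNA-seq libraries were not analysed here.

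Starts were counted from 1. All 16 chromosome names match the RefSeq R64 annotation, whose gene starts are coding starts. A feature was held from 1 bp of overlap, and a start or end when its base lay inside. In base shares each base was counted once, with coding genes taking precedence. Regions named are those with an RNA gene or centromere, the 10 longest, the 10 farthest from a start, the 5 on either side of the rule and those wholly inside a gene. Other regions and genes, the description words and GTTCNANNC were chosen after their values were seen. The regions and lists were chosen with earlier results of these data known. Alternatives moved the start, the distance, the gene set, the regions kept and the overlap. The work was done in Python 3.11.15 with NumPy 2.4.6 and, for intervals and figures, SciPy 1.17.1 and Matplotlib 3.10.9.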

Additional observations from a re-analysis of the deposited data

How the results depend on the processing

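The count of 69 regions depended most on which genes were given a start. It rose to 108 when only genes with a standard name were used, and was 60 with the starts of RNA genes and pseudogenes added. Moving the start, setting another distance, dropping short or subtelomeric regions or joining close neighbours gave 52 to 79. The snoRNA share of 1.45% fell to 0% when the whole gene had to lie inside, since SNR86 is cut by the edge of its region. The other alternatives, 21 of 23, kept values within 1.5 times or within the interval of the value. Such intervals are wide, so a moderate shift still counts as kept. That of the coding share, 48.2%, ran from 35.6% to 60.2%. It is an exact binomial interval that counts each of the 69 regions as wholly coding or not. It therefore does not measure the spread of a share of bases, and its label of kept says little here. Regions more than 500 bp from a start had a coding share of 38.0%. Gene ends were in 46.2% of those regions, against 55.1% of all 69.

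No paired analysis was possible because replicates were merged into a single list. Leaving out a library was likewise not possible, and with no peak score a stricter threshold was not set. The depth behind a region is unknown, and each region counts the same however many libraries had a peak there.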
